A study of Homo sapiens with 9 samples.

Results

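The 51 genes described here encode the machinery that copies DNA, the enzymes that make its building blocks, and the regulators that start S phase. They were chosen by symbol from a list of replication and S phase genes, with no measured value in the rule, and were sorted into 9 roles: 4 genes of origin licensing, 6 subunits of the MCM helicase, 6 factors of helicase activation, 8 polymerase and primase subunits, 8 genes of the sliding clamp and lagging strand, 3 subunits of the single-stranded DNA binding protein RPA, 4 enzymes of nucleotide supply, 6 regulators of the G1/S transition, and 6 genes of chromatin assembly and fork surveillance. All 51 were found among the 23710 genes of the count table, and all 51 passed the filter on low counts that left 12546 genes for testing.

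The cells were MDA-MB-231, an established human line from a triple-negative breast cancer, transduced with lentivirus from pGIPZ, a vector that carries a short hairpin RNA. The groups were shUGDH-1 and shUGDH-2, independent hairpins against UGDH, and shNT, a non-targeting hairpin, with 3 libraries per group and 9 in all. Lentiviral transduction with the same vector is common to all 3 groups, controls included, and no untransduced cells were analysed here. Per the labels the cultures were biological replicates of a single line, with no statement of whether transductions were repeated or clones were picked, so a p-value here reflects variation among these libraries alone. UGDH encodes UDP-glucose 6-dehydrogenase, which makes UDP-glucuronate for hyaluronan, sulfated glycosaminoglycans and glucuronidation. The question for the replication genes was whether their mRNA levels differed with either hairpin from the shNT level, role by role, and whether the hairpins differed from each other.

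Replication begins in G1, when ORC, CDC6 and CDT1 load the MCM2-7 helicase onto origins. At the start of S phase, cyclin E with CDK2 and the kinase CDC7 convert it into the active CDC45-MCM-GINS helicase. Polymerase alpha-primase then lays down primers, the RFC complex loads the PCNA clamp, and polymerases delta and epsilon extend the strands, while FEN1 and LIG1 join the lagging strand fragments. Most of these genes are transcribed in late G1 and S phase under E2F transcription factors, so in tumour lines their mRNAs are widely used as a proliferation signature.

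UGDH itself stood at 7.62, 7.29 and 8.03 CPM with shUGDH-1 and 8.08, 6.62 and 6.78 CPM with shUGDH-2, against 53.0, 55.6 and 50.2 CPM with shNT, where CPM is edgeR's count scaled to a common library size after TMM. That left 14.4% of the shNT level with shUGDH-1 and 13.5% with shUGDH-2, by the fitted fold changes, and the hairpins did not differ from each other beyond their spread (log2 fold change -0.091 ± 0.13 (SE), edgeR adjusted p = 0.74). Their target sites lie in exon 4 of the UGDH transcript, at chr4:39510687-39510705 for shUGDH-1 and chr4:39510800-39510818 for shUGDH-2 (minus strand, GRCh38). Neither hairpin had a full-length match in a transcript of the 51 genes, and partial matches were not searched. Libraries held 9249738 to 13328002 counts, of which the 51 genes took 0.56% to 0.581%. Of the 10 listed markers of the line's basal and mesenchymal character, 9 were well counted, from ZEB1 at 705 to 1121 counts per library to VIM at 22798 to 33574 counts, while SPARC had 4 to 20 counts. Markers of other cell types were mixed. Among luminal genes, ESR1, PGR and FOXA1 had 0 to 2 counts and CDH1 had 2 to 13, whereas the keratin genes KRT8 and KRT18 were abundant (7338 to 10824 and 4804 to 6903 counts). The luminal genes KRT19, GATA3 and EPCAM were also counted, at 1588 to 2497, 353 to 595 and 87 to 145 counts. Among leukocyte genes, PTPRC, CD3E, LYZ and ITGAM had 0 to 4 counts and CD14 had 18 to 33, whereas CD68 had 763 to 1193 and HLA-DRA 286 to 725. Among fibroblast genes, DCN, LUM, THY1, PDGFRA and COL3A1 had 0 to 6 counts, whereas PDGFRB had 193 to 294, COL1A1 88 to 169 and COL1A2 40 to 153.

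Many of these genes share a short E2F-type word near the start of transcription. The stretches printed here are the 150 bases before the RefSeq start (GRCh38.p14) of 5 genes with such a word, printed because they include 3 genes whose mRNA changed with a hairpin (POLA1, PCNA, CDT1) beside 2 whose mRNA did not pass the test in any comparison (E2F1, TYMS). Each is read 5′ to 3′ on the gene's strand, and capitals mark the word or its reverse complement.
POLA1 (chrX:24693768-24693917, plus strand): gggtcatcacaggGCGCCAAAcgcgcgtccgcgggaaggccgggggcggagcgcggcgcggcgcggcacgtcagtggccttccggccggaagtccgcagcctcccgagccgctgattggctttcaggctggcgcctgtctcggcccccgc
PCNA (chr20:5126623-5126772, minus strand): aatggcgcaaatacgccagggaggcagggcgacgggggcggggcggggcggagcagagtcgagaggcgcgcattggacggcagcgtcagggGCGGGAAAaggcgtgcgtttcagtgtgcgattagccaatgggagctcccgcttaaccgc
CDT1 (chr16:88803639-88803788, plus strand): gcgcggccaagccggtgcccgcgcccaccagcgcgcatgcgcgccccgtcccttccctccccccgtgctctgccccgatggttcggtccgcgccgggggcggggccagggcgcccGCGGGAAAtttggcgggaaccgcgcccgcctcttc
E2F1 (chr20:33686386-33686535, minus strand): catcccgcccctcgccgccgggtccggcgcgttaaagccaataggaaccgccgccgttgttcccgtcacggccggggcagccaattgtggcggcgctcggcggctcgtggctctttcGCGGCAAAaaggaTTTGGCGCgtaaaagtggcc
TYMS (chr18:657503-657652, plus strand): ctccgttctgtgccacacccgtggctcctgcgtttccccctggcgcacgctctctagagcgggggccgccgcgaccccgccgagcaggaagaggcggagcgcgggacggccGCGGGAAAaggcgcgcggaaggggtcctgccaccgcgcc

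The words searched were TTTGGCGC, TTTCCCGC, TTTGCCGC and TTTCGCGC, on both strands of windows of 300 bases that ran 250 bases before to 50 bases after the start. A gene counted once if any of its windows held a word, however many words there were, overlapping ones included. RefSeq promoters were matched by symbol for 42 of the 51 genes, and 22 of the 42 (52.4%) held a word, against 855 of 15843 protein-coding genes of the table (5.4%). In POLA1 the word began 137 bases before the start, in PCNA 59, in CDT1 35 and in TYMS 39, and E2F1 held words at 33 and 20 bases. The pentamer CCAAT was in 25 of the 42 genes (59.5%), against 42.1% of protein-coding genes. The CHR words TTTGAA and TTCGAA, which mark many G2/M genes, were in 2 of the 42 (4.76%), against 17.5%. A word in these windows is a description of the sequence and says nothing about factor binding in these cells.

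Changes in the 51 replication genes were small with either hairpin, and most genes did not pass the test. With shUGDH-1, 3 of the 51 were higher than in shNT (CDT1, FEN1 and TK1; 5.88% of the 51, against 10.5% of all genes tested) and 7 were lower (MCM3, GINS3, POLA1, RRM2, CCNE1, CHAF1A and SLBP; 13.7%, against 10.3%), at an adjusted p under 0.05 in edgeR's quasi-likelihood test, with p-values adjusted by Benjamini and Hochberg's method over all 12546 genes. With shUGDH-2, none of the 51 was higher (0%, against 8.04% of all genes) and 8 were lower (MCM4, GINS1, GINS4, POLA1, PCNA, RRM2, CCNE1 and CCNE2; 15.7%, against 6.81%). The count of 0 was also 0 at an unadjusted p under 0.05 in edgeR, and 0 with DESeq2 and with limma-voom. Without shUGDH-2 replicate 1, 5 genes in place of 8 were lower, with MCM4, GINS1 and GINS4 past the threshold no longer, and DESeq2 also gave 5. In mRNA from whole cultures, fewer cells in S phase and less of an mRNA in each cell cannot be told apart.

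**Figure D1:**
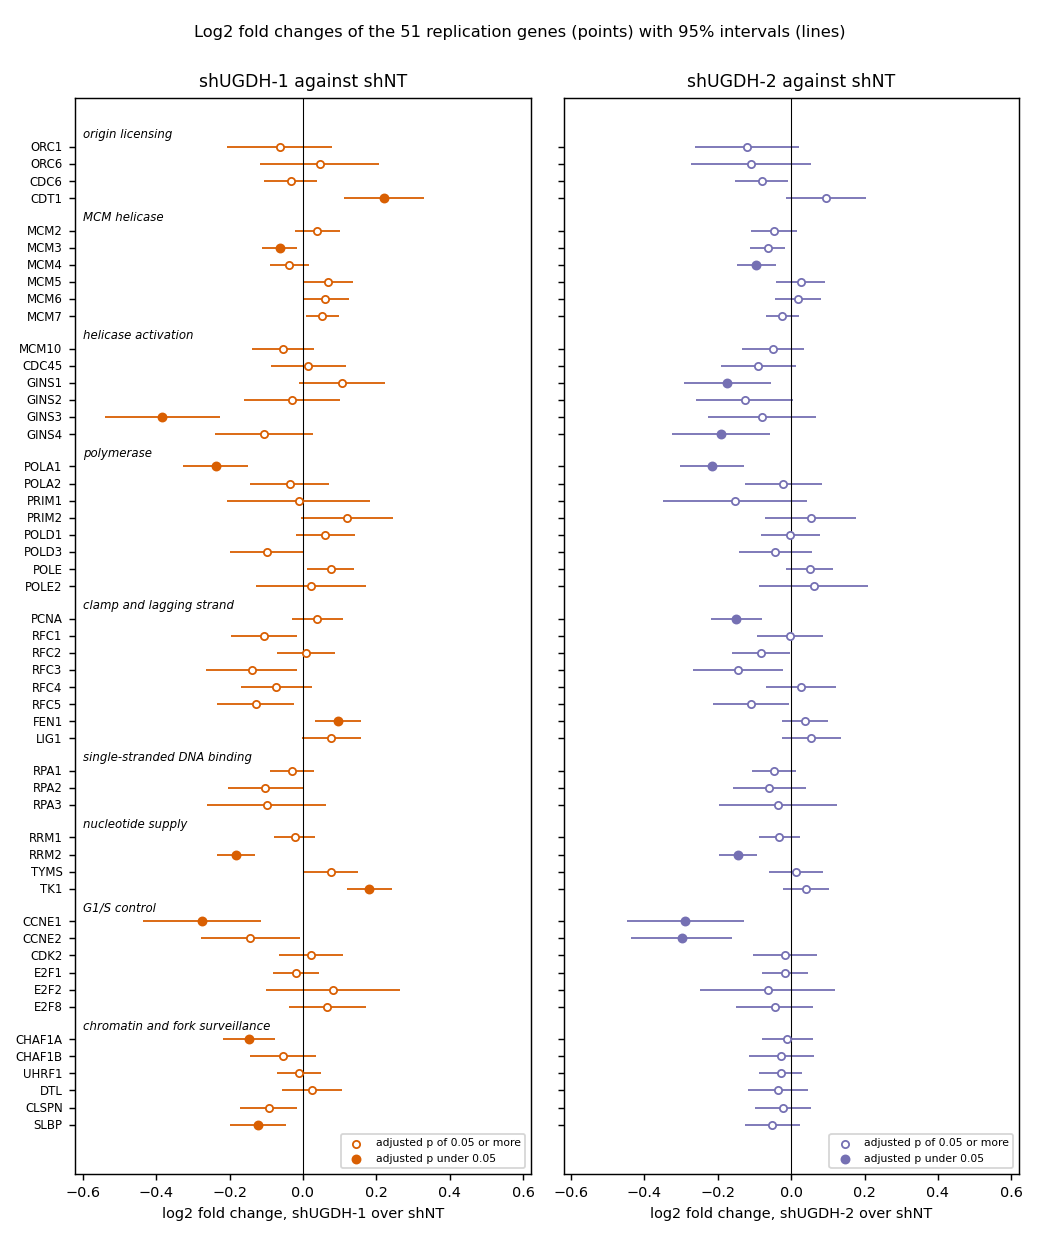
Log2 fold change of each of the 51 genes (points) with its 95% interval (lines), for shUGDH-1 over shNT at left and shUGDH-2 over shNT at right, 3 libraries per group, grouped by role. Filled points passed an adjusted p of 0.05; all points lie between -0.383 and 0.221, and in the shUGDH-2 panel every filled point is below 0.

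The plot of fold changes by role shows how narrow the range was. For 47 of the 51 genes, in each of the comparisons with shNT, the 95% interval of the log2 fold change lay inside ±0.32, the size of a 25% rise. The largest change was that of GINS3 with shUGDH-1, which fell by 23.3%. The median log2 fold change of the 51 genes was -0.022 with shUGDH-1 and -0.045 with shUGDH-2, beside -0.003 and -0.006 over all genes tested. With shUGDH-2, 40 of the 51 fold changes were below 0, or 78.4%, beside 54.4% of the 7723 genes whose mean level was at least that of the lowest of the 51. With shUGDH-1 the shares were 56.9% and 52.4%. The replication genes were measured more precisely than most, with a median SE of 0.044 against 0.069 over all genes with shUGDH-1, which bears on how many can pass the test.

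**Figure D2:**
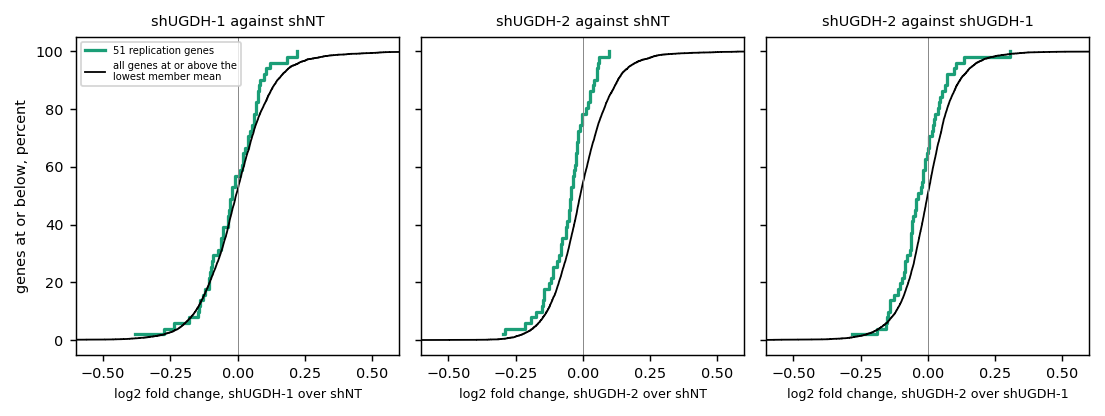
Cumulative share of genes (percent, vertical axis) at or below each log2 fold change (horizontal axis), for the 51 replication genes (green) and for the 7723 genes with a mean level at or above the lowest of them (black), in each comparison. With shUGDH-2 over shNT the green curve lies left of the black curve (medians -0.045 and -0.01), while with shUGDH-1 over shNT the medians are -0.022 and -0.007.

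A count by library gave the same outline as the cumulative curves. With shUGDH-2, 19 of the 51 genes (37.3%) had all 3 libraries below all 3 shNT libraries, against 13.9% of all genes tested, and 0 of 51 had all 3 above, against 14.7%. With shUGDH-1, 13 genes (25.5%) lay wholly below, against 16.8% of all genes, and 10 (19.6%) wholly above, against 17.3%. The sum of the 51 levels was 5742, 5682 and 5767 CPM with shUGDH-1 and 5612, 5598 and 5613 CPM with shUGDH-2, against 5772, 5798 and 5741 CPM with shNT. Every shUGDH-2 library therefore lay below every library of the other groups, with a mean -2.82% from that of shNT, while the shUGDH-1 libraries overlapped those of shNT.

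In the authors' deposited tables, which come from their own fit, 2 of the 51 genes were higher with shUGDH-1 (CDT1 and TK1), against 8.49% of their genes. There 7 were lower with shUGDH-1 (MCM3, GINS3, POLA1, RRM2, CCNE1, CHAF1A and SLBP), against 7.68%. For shUGDH-2 the authors' deposited table gave 0 higher, against 6.06% of its genes, and 6 lower (MCM4, POLA1, PCNA, RRM2, CCNE1 and CCNE2), against 4.17%. FEN1 with shUGDH-1 (adjusted p = 0.061) and GINS1 (0.0928) and GINS4 (0.0854) with shUGDH-2 missed the threshold in the authors' deposited tables and passed it in edgeR.

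Licensing differed little. CDT1, which brings the MCM helicase to ORC and CDC6 at origins and is destroyed in S phase, had 66.3, 63.4 and 70.4 CPM with shUGDH-1 and 62.6, 55.3 and 64.9 CPM with shUGDH-2, against 55.97, 61.0 and 53.97 CPM with shNT. All 3 shUGDH-1 libraries lay above all 3 shNT libraries, and the shUGDH-2 libraries overlapped both. Its log2 fold change was 0.22 ± 0.055 (SE), edgeR adjusted p = 0.00179, with shUGDH-1 and 0.096 ± 0.055 (SE), edgeR adjusted p = 0.266, with shUGDH-2. CDC6, the ATPase that loads MCM with CDT1, had 125, 131 and 132 CPM with shUGDH-1 and 125, 124 and 126 CPM with shUGDH-2, against 137, 129 and 130.1 CPM with shNT. Those shUGDH-2 libraries lay just below the shNT range, but neither fold change passed the test (-0.034 and -0.080; edgeR adjusted p = 0.575 and 0.13). The origin recognition subunits ORC1 and ORC6 ranged from 17.1 to 26.9 CPM over all libraries and were not called, with log2 fold changes of -0.064 and 0.045 for shUGDH-1 and -0.12 and -0.11 for shUGDH-2. The summed level of the 4 genes differed from shNT by 2.69% with shUGDH-1 and by -2.86% with shUGDH-2, and both ranges overlapped that of shNT.

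The MCM2-7 helicase, the ring that unwinds the template, moved by a few percent in its single subunits. MCM3 had 361.5, 352.5 and 351 CPM with shUGDH-1 and 361, 349 and 356 CPM with shUGDH-2, against 373, 367 and 373 CPM with shNT. Both UGDH groups lay wholly below shNT, and the fold changes were nearly equal, at -0.064 ± 0.024 (SE), edgeR adjusted p = 0.0464, with shUGDH-1 and -0.064 ± 0.024 (SE), edgeR adjusted p = 0.058, with shUGDH-2, on either side of the threshold. The shUGDH-1 call was lost in 9 of 14 alternative analyses, among them those without shUGDH-1 replicate 2 (-0.058) or 3 (-0.055) and without shNT replicate 1 (-0.060), 2 (-0.070) or 3 (-0.059).

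MCM4 had 250.3, 252.5 and 246.5 CPM with shUGDH-1 and 238, 244 and 238 CPM with shUGDH-2, against 257, 255 and 257 CPM with shNT. Every shUGDH-2 library was below every library of the other groups, and the fall against shNT passed the test with shUGDH-2 (-0.095 ± 0.027 (SE), edgeR adjusted p = 0.00912) and not with shUGDH-1 (-0.037 ± 0.027 (SE), edgeR adjusted p = 0.363); without shUGDH-2 replicate 1 the value was -0.087 and no longer passed. MCM7 had 442, 441 and 429 CPM with shUGDH-1 and 424, 409 and 413 CPM with shUGDH-2, against 422, 423.5 and 421 CPM with shNT. Its shUGDH-1 libraries were above all others, and the hairpins differed from each other (shUGDH-2 over shUGDH-1 -0.077 ± 0.023 (SE), edgeR adjusted p = 0.0159), while neither differed from shNT past the threshold. That difference was lost without shUGDH-1 replicate 1 or 2 (-0.069 each) and without shUGDH-2 replicate 2 (-0.065) or 3 (-0.072).

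MCM2, by contrast, had 225.5, 217 and 213 CPM with shUGDH-1 and 207, 208 and 204 CPM with shUGDH-2, against 207, 225 and 208 CPM with shNT, with all groups overlapping shNT. Neither its fold change with shUGDH-1 (0.038, 95% interval -0.023 to 0.10) nor that with shUGDH-2 (-0.047, 95% interval -0.11 to 0.015) passed the test. MCM5 and MCM6 likewise did not pass, with log2 fold changes of 0.069 and 0.061 for shUGDH-1 and 0.026 and 0.018 for shUGDH-2. Summed over the 6 subunits, the helicase stood at 1647, 1620 and 1601 CPM with shUGDH-1 and 1589, 1562 and 1554 CPM with shUGDH-2, against 1605, 1616 and 1607 CPM with shNT. The shUGDH-2 sums lay below those of both other groups, with a mean -2.53% from that of shNT.

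Helicase activation held the largest single change. The 4 GINS subunits form the ring that joins MCM to CDC45, and they did not move together. GINS3 had 23.3, 21.8 and 22.5 CPM with shUGDH-1 and 29.3, 25.01 and 29.3 CPM with shUGDH-2, against 30.6, 31.5 and 25.9 CPM with shNT, so that all shUGDH-1 libraries lay below every other library. Its log2 fold change was -0.38 ± 0.078 (SE), edgeR adjusted p = 0.000128, with shUGDH-1 and -0.079 ± 0.074 (SE), edgeR adjusted p = 0.55, with shUGDH-2, and the hairpins differed from each other by 0.31 ± 0.078 (SE), edgeR adjusted p = 0.00472. GINS1 went the other way between the hairpins, with 46.7, 43.7 and 46.2 CPM with shUGDH-1 and 35.02, 39.9 and 37.3 CPM with shUGDH-2, against 41.2, 43.3 and 42.4 CPM with shNT. In GINS1 the shUGDH-2 libraries were the lowest and the shUGDH-1 libraries the highest, without overlap. The fall with shUGDH-2 was -0.17 ± 0.060 (SE), edgeR adjusted p = 0.0362, the value with shUGDH-1 0.11 ± 0.058 (SE), edgeR adjusted p = 0.206, and the difference between hairpins -0.28 ± 0.059 (SE), edgeR adjusted p = 0.000417. The shUGDH-2 call of GINS1 was lost without shUGDH-2 replicate 1 (-0.128) or 3 (-0.169) and without shNT replicate 2 (-0.154) or 3 (-0.17).

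GINS4 had 29.5, 29.4 and 32.2 CPM with shUGDH-1 and 28.5, 28.9 and 28.02 CPM with shUGDH-2, against 34.3, 30.8 and 32.3 CPM with shNT. Its shUGDH-2 libraries were below all others, at -0.19 ± 0.067 (SE), edgeR adjusted p = 0.0411, against shNT, a call lost in 8 of 14 alternative analyses. Those included the analyses without shUGDH-2 replicate 1 (-0.188), 2 (-0.202) or 3 (-0.178) and without shNT replicate 1 (-0.147) or 3 (-0.195). GINS2 was at -0.030 with shUGDH-1 and -0.13 with shUGDH-2, CDC45 at 0.014 and -0.089, and MCM10, which helps to activate the assembled helicase, at -0.054 and -0.050, none of them called. The summed level of these 6 genes was 273.8, 266.2 and 275.2 CPM with shUGDH-1 and 260.4, 260.6 and 263 CPM with shUGDH-2, against 279.4, 283.5 and 279.7 CPM with shNT. It was the only role of the 9 in which the sums of both UGDH groups lay wholly below shNT, with means -3.26% from it with shUGDH-1 and -6.97% with shUGDH-2. GINS3 and GINS4 share 10.9% and 21.2% of their annotated exon bases with antisense genes, and the strand setting of the counting is not given in the sources used here.

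**Figure D3:**
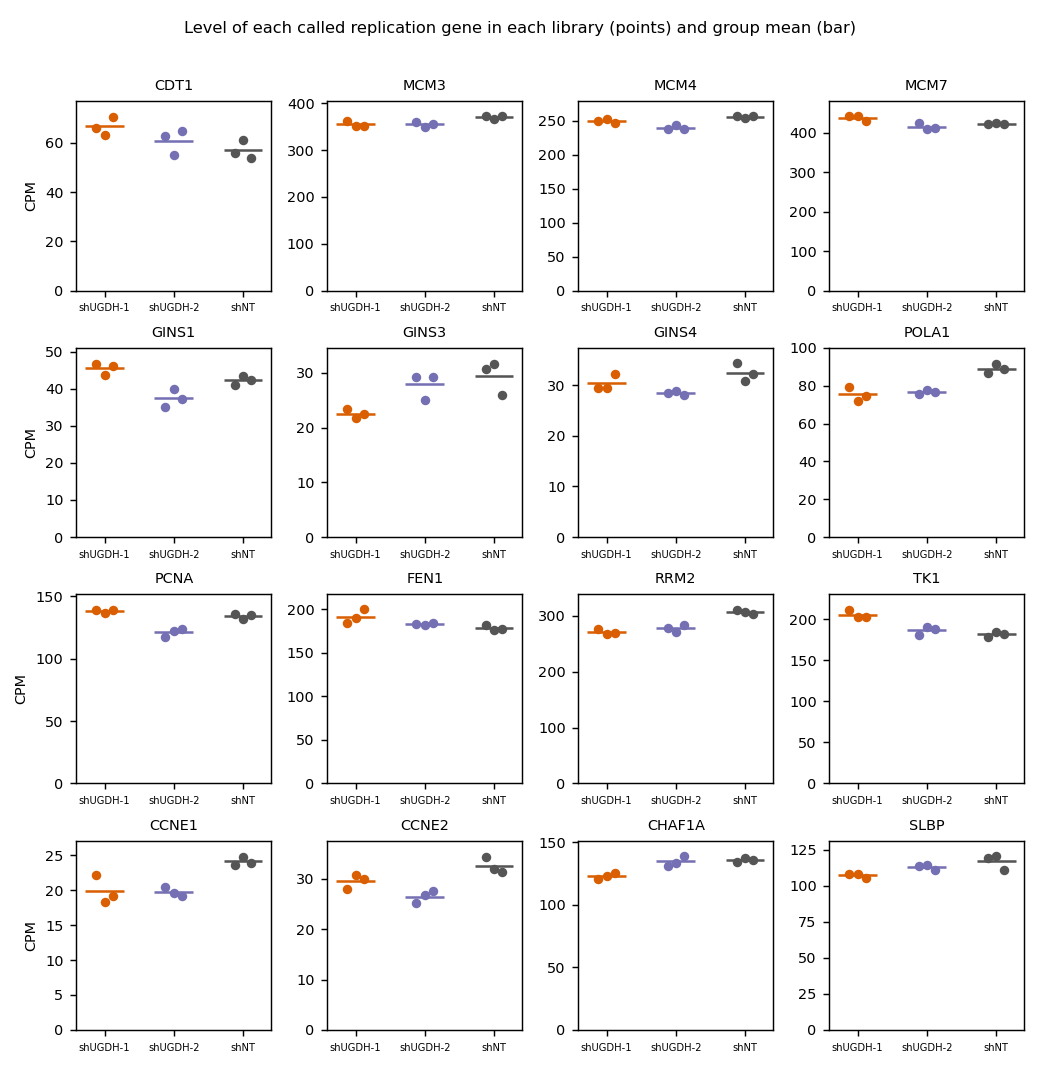
Level (CPM, axes from 0) in each library (points) and group mean (bars) of the 16 replication genes called in at least 1 comparison. MCM3, MCM4, POLA1, RRM2, CCNE1 and CCNE2 have all libraries of both UGDH groups below all shNT libraries. GINS3, CHAF1A and SLBP have shUGDH-1 alone wholly below, and GINS1, GINS4 and PCNA have shUGDH-2 alone wholly below.

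Among the polymerases a single gene changed, and it did so with each hairpin. POLA1, the catalytic subunit of polymerase alpha, which extends the RNA primer on both strands, had 79.3, 72.1 and 74.7 CPM with shUGDH-1 and 75.5, 77.7 and 76.6 CPM with shUGDH-2, against 86.5, 91.7 and 88.8 CPM with shNT. All 6 UGDH libraries lay below all 3 shNT libraries. POLA1 fell by 15.2% with shUGDH-1 (log2 fold change -0.24 ± 0.044 (SE), edgeR adjusted p = 2.96e-05) and fell by 13.9% with shUGDH-2 (-0.22 ± 0.044 (SE), edgeR adjusted p = 0.000243), and both comparisons use the same shNT libraries. The hairpins did not differ past the threshold (shUGDH-2 over shUGDH-1 0.023, 95% interval -0.067 to 0.11).

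The partners of POLA1 did not pass the test. The second subunit POLA2 was at -0.035 with shUGDH-1 and -0.021 with shUGDH-2, the primase subunit PRIM1 at -0.012 and -0.15, and its partner PRIM2 at 0.12 and 0.053. POLA2 and PRIM1 share 35.1% and 14.9% of their annotated exon bases, each with another protein-coding entry on the same strand. PRIM1 was the noisiest of the 51 genes in both UGDH groups, with a coefficient of variation of 17% over the shUGDH-1 libraries and 11.9% over those of shUGDH-2, so its interval with shUGDH-2 ran from -0.35 to 0.044. The leading strand polymerase subunits POLE and POLE2 were at 0.075 and 0.021 for shUGDH-1 and 0.051 and 0.061 for shUGDH-2. The delta subunits POLD1 and POLD3 were at 0.061 and -0.097 for shUGDH-1 and -0.002 and -0.043 for shUGDH-2. The summed level of the 8 polymerase genes overlapped between all groups.

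PCNA, the ring that tethers the polymerases to DNA, set the hairpins apart. It had 139, 136 and 139 CPM with shUGDH-1 and 117, 122 and 124 CPM with shUGDH-2, against 136, 132 and 135 CPM with shNT. The shUGDH-2 libraries were below every other library, and the shUGDH-1 libraries sat narrowly above shNT. Against shNT the log2 fold change was -0.15 ± 0.035 (SE), edgeR adjusted p = 0.00168, with shUGDH-2 and 0.039 ± 0.035 (SE), edgeR adjusted p = 0.482, with shUGDH-1, and shUGDH-2 over shUGDH-1 was -0.19 ± 0.035 (SE), edgeR adjusted p = 6.26e-05. PCNA has annotated pseudogenes named after it, so some of its reads could have been assigned elsewhere. The same limit holds for RFC3, RFC5, FEN1, RPA2, RRM2 and TYMS, which also have a pseudogene or pseudogenes named after them.

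FEN1, the nuclease that trims the flap at the end of a lagging strand fragment, had 184.5, 189.7 and 199.8 CPM with shUGDH-1 and 183, 182 and 184 CPM with shUGDH-2, against 182, 176 and 177 CPM with shNT. The shUGDH-1 libraries were above all others, at 0.096 ± 0.031 (SE), edgeR adjusted p = 0.0204, against shNT, and shUGDH-2 was at 0.038 ± 0.031 (SE), edgeR adjusted p = 0.484. That call was lost without shUGDH-1 replicate 2 (0.101) or 3 (0.069) and without shNT replicate 2 (0.087) or 3 (0.092). LIG1, the ligase that seals the fragments, was at 0.076 for shUGDH-1 and 0.055 for shUGDH-2 and was not called. None of the 5 RFC subunits, which form the clamp loader, passed the test, with log2 fold changes between -0.14 and 0.009 with shUGDH-1 and between -0.14 and 0.026 with shUGDH-2. RFC3 and RFC5 had both UGDH groups below shNT without overlap, at adjusted p values in edgeR between 0.0729 and 0.158, and at an unadjusted p under 0.05 each would have been counted as lower with either hairpin. None of the 3 RPA subunits, which coat single-stranded DNA, passed either, and all 6 of their fold changes against shNT were below 0, between -0.10 and -0.030.

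In nucleotide supply RRM2 was lower with each hairpin and TK1 was higher with shUGDH-1. RRM2, the small subunit of ribonucleotide reductase, which makes deoxyribonucleotides and is made in S phase, had 276, 267 and 269 CPM with shUGDH-1 and 278, 270.4 and 284 CPM with shUGDH-2, against 311, 307 and 302 CPM with shNT. All 6 UGDH libraries lay below all 3 shNT libraries. RRM2 fell by 11.8% with shUGDH-1 (-0.18 ± 0.026 (SE), edgeR adjusted p = 1.54e-07) and fell by 9.61% with shUGDH-2 (-0.15 ± 0.026 (SE), edgeR adjusted p = 2.49e-05). RRM1, the large subunit of the same enzyme, had 254, 244 and 264.5 CPM with shUGDH-1 and 258, 249 and 249 CPM with shUGDH-2, against 256.5, 259 and 257 CPM with shNT. Its groups overlapped, and its fold changes of -0.022 and -0.032 did not pass the test. Per kilobase of transcript, RRM2 stood at 78.8 ± 1.4 CPM with shUGDH-1 and 80.9 ± 1.9 CPM with shUGDH-2, against 89.4 ± 1.2 CPM with shNT, while RRM1 stood at 82.7 ± 3.3 CPM with shUGDH-1 and 81.9 ± 1.6 CPM with shUGDH-2, against 83.7 ± 0.51 CPM with shNT (SD, n = 3 each). Per length RRM2 thus exceeded RRM1 in shNT alone, and with shUGDH-2 the gap between them was smaller than either SD. RRM2 shares 20.2% of its annotated exon bases with another protein-coding entry on the same strand and has pseudogenes named after it.

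TK1, thymidine kinase of the salvage pathway, had 212, 202 and 203 CPM with shUGDH-1 and 181, 191 and 188 CPM with shUGDH-2, against 179, 185 and 182 CPM with shNT. The shUGDH-1 libraries were above every other library, a rise of 13.4% (0.18 ± 0.031 (SE), edgeR adjusted p = 5.36e-06), and the shUGDH-2 value was 0.040 ± 0.031 (SE), edgeR adjusted p = 0.434. The hairpins differed from each other in TK1 by -0.14 ± 0.030 (SE), edgeR adjusted p = 0.000587. TYMS, thymidylate synthase of the de novo pathway, had 145.5, 140 and 157 CPM with shUGDH-1 and 142, 136 and 144 CPM with shUGDH-2, against 139, 135 and 143 CPM with shNT. All its groups overlapped and neither fold change passed (0.077, 95% interval 0.004 to 0.15, with shUGDH-1; 0.013, 95% interval -0.059 to 0.086, with shUGDH-2), although without shUGDH-1 replicate 2 the shUGDH-1 value was 0.114 and passed (edgeR adjusted p = 0.0491). TYMS shares 39.1% of its exon bases with ENOSF1 on the opposite strand, whose log2 fold changes were 0.064 and 0.073 and were not called.

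At the G1/S transition the cyclin E genes were lower, and the E2F genes among the 51 (E2F1, E2F2 and E2F8) did not pass the test. CCNE1, which with CDK2 drives entry into S phase, had 22.2, 18.3 and 19.1 CPM with shUGDH-1 and 20.5, 19.6 and 19.1 CPM with shUGDH-2, against 23.7, 24.7 and 23.9 CPM with shNT. Both UGDH groups lay wholly below shNT, and CCNE1 fell by 17.4% with shUGDH-1 (-0.28 ± 0.080 (SE), edgeR adjusted p = 0.0088) and fell by 18.1% with shUGDH-2 (-0.29 ± 0.080 (SE), edgeR adjusted p = 0.00821). Without shUGDH-1 replicate 2 the value with shUGDH-1 was -0.209 and no longer passed. The DESeq2 alternative run here called CCNE1 in neither comparison. In the authors' deposited tables, from their own fit, CCNE1 was lower with both hairpins (adjusted p = 0.0319 with shUGDH-1 and 0.0121 with shUGDH-2). CCNE2, the second cyclin E, had 27.9, 30.8 and 29.9 CPM with shUGDH-1 and 25.2, 26.8 and 27.5 CPM with shUGDH-2, against 34.3, 31.9 and 31.4 CPM with shNT. It was lowest with shUGDH-2, where it fell by 18.7% (-0.30 ± 0.068 (SE), edgeR adjusted p = 0.00117), and with shUGDH-1 it was also below shNT in every library but did not pass (-0.14 ± 0.068 (SE), edgeR adjusted p = 0.129). CCNE2 shares 37% of its exon bases with INTS8 on the opposite strand, whose own log2 fold changes were 0.040 for shUGDH-1 and -0.078 for shUGDH-2 and were not called.

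Their kinase CDK2 was at 0.021 with shUGDH-1 and -0.017 with shUGDH-2. E2F1, the activator that drives many of these promoters including its own, had 184, 180.1 and 175 CPM with shUGDH-1 and 178, 185 and 179 CPM with shUGDH-2, against 179, 189 and 179.9 CPM with shNT. The 3 groups overlapped fully, and its 95% intervals ran from -0.083 to 0.044 with shUGDH-1 and from -0.080 to 0.046 with shUGDH-2. The second activator E2F2 and the repressor E2F8 were not called in any comparison, with log2 fold changes of 0.082 and 0.066 for shUGDH-1 and -0.064 and -0.045 for shUGDH-2.

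Behind the fork, CHAF1A, the large subunit of the CAF-1 complex that places histones on new DNA, had 120.5, 123 and 125 CPM with shUGDH-1 and 131, 134 and 139 CPM with shUGDH-2, against 134, 137.5 and 136 CPM with shNT. The shUGDH-1 libraries lay below all others (-0.15 ± 0.036 (SE), edgeR adjusted p = 0.00146), and the shUGDH-2 libraries overlapped shNT (-0.011 ± 0.035 (SE), edgeR adjusted p = 0.884). The hairpins differed by 0.14 ± 0.035 (SE), edgeR adjusted p = 0.00587, a call lost without shUGDH-1 replicate 1 (0.12) or shUGDH-2 replicate 3 (0.111). SLBP, which binds the stem-loop at the end of replication-dependent histone mRNAs, had 108, 108.5 and 105 CPM with shUGDH-1 and 114, 114 and 111 CPM with shUGDH-2, against 119, 121 and 111 CPM with shNT. It was lower with shUGDH-1 (-0.12 ± 0.038 (SE), edgeR adjusted p = 0.0158) and at -0.051 ± 0.038 (SE), edgeR adjusted p = 0.421, with shUGDH-2, and the shUGDH-1 call was lost without shUGDH-1 replicate 3 (-0.109) and without shNT replicate 1 (-0.107) or 2 (-0.097). The other CAF-1 subunit CHAF1B, the maintenance methylation factor UHRF1, the CDT1 degradation factor DTL and the checkpoint mediator CLSPN were not called, at -0.055, -0.011, 0.025 and -0.093 for shUGDH-1 and -0.027, -0.028, -0.036 and -0.022 for shUGDH-2. The summed level of these 6 genes differed from shNT by -4.38% with shUGDH-1, without overlap, and by -1.95% with shUGDH-2, with overlap.

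**Figure D4:**
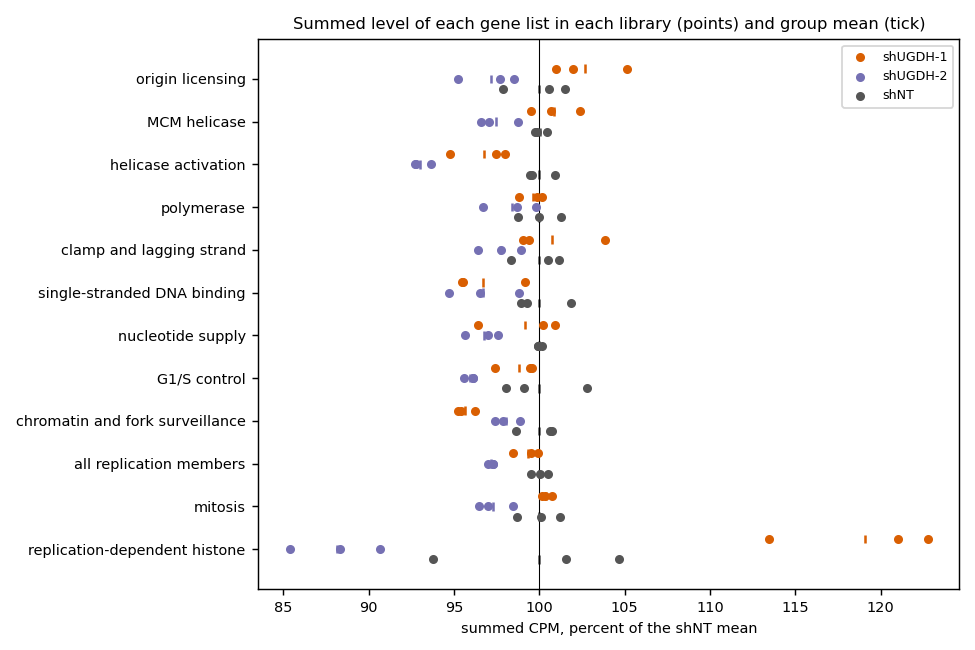
Summed CPM of each role in each library (points), as percent of the shNT mean, with group means as ticks; mitosis and replication-dependent histone genes follow under the 9 roles. Over all 51 genes the shUGDH-2 libraries sit left of all others, with a mean -2.82% from that of shNT, while shUGDH-1 and shNT overlap; the histone sum lies above shNT with shUGDH-1 and below it with shUGDH-2.

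Set directly against each other, the hairpins differed in 6 of the 51 genes. With shUGDH-2 over shUGDH-1, GINS3 and CHAF1A were higher (2 genes, 3.92%, against 5.36% of all genes tested) and MCM7, GINS1, PCNA and TK1 were lower (4 genes, 7.84%, against 5.51%). The count of 2 higher genes was 1 without shUGDH-1 replicate 1 or without shUGDH-2 replicate 3, which in each case lost CHAF1A. All 3 shUGDH-2 libraries lay below all 3 shUGDH-1 libraries in 13 genes (25.5%, against 13.9% of all genes) and above them in 3 (5.88%, against 13.1%). The median of the 51 differences was -0.038, beside -0.001 over all genes.

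Within complexes, levels were compared per transcript length. In MCM2-7 the most abundant subunit was MCM7 and the least abundant MCM5, with ratios of 3.08 with shUGDH-1, 2.99 with shUGDH-2 and 3.11 with shNT. The ratio of RFC2 to RFC3 was 4.32 with shUGDH-1, 4.04 with shUGDH-2 and 3.88 with shNT, and that of RPA1 to RPA3 was 4.5 with shUGDH-1, 4.24 with shUGDH-2 and 4.26 with shNT. In GINS the leading subunit per length was GINS1 with shUGDH-1 (14 ± 0.5 CPM per kilobase), GINS3 with shUGDH-2 (12.3 ± 1.1) and GINS1 with shNT (13 ± 0.34), and with shUGDH-2 and shNT the values of GINS1, GINS2 and GINS3 lay within their spread. E2F1 exceeded E2F2 by a ratio of 18.5 with shUGDH-1, 20.6 with shUGDH-2 and 19.9 with shNT, and the ratio of CDK2 to CCNE2 was 4.44 with shUGDH-1, 4.8 with shUGDH-2 and 3.96 with shNT. These ratios depend on the transcript chosen for the length, which was the same for all groups.

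**Figure D5:**
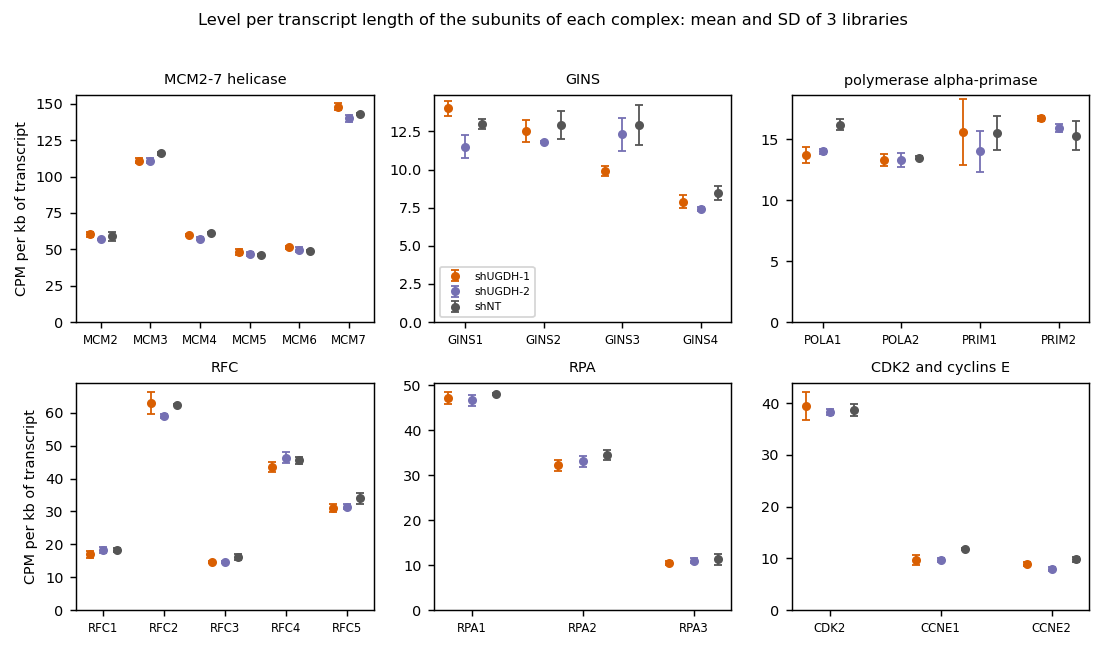
Level per transcript length (CPM per kilobase, axes from 0; mean and SD of 3 libraries) of the subunits of 6 complexes in the 3 groups. MCM7 and MCM3 stand above the other MCM subunits in every group, and POLA1 is at 13.7 with shUGDH-1 and 14 with shUGDH-2, against 16.2 with shNT.

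The E2F-type word was found among the genes that changed and among those that did not pass the test. Of the 13 called genes with a matched promoter, 7 held a word (CDT1, GINS1, GINS3, MCM3, MCM7, PCNA and POLA1), and of the 29 genes called in no comparison 15 did, among them E2F1, CDC6, MCM2 and TYMS. In the stretches printed above, POLA1, lower with each hairpin, PCNA, lower with shUGDH-2, CDT1, higher with shUGDH-1, and TYMS, called in no comparison, each hold a single word. CCAAT was in 8 of the 13 and 17 of the 29.

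A wider list of 111 other replication pathway genes, of which 108 were tested, moved on the same small scale. With shUGDH-1, 5 were higher (4.63%, against 10.5% of all genes tested) and 21 lower (19.4%, against 10.3%), with a median log2 fold change of -0.040. With shUGDH-2, 2 were higher (1.85%, against 8.04% of all genes tested) and 11 lower (10.2%, against 6.81%), with a median of -0.052. Topoisomerases, which relieve the twist ahead of the fork, were among the lower genes. TOP1 had 254, 252 and 248.5 CPM with shUGDH-1 and 280, 287.5 and 282.5 CPM with shUGDH-2, against 307, 309 and 309.8 CPM with shNT, which is -0.29 ± 0.026 (SE), edgeR adjusted p = 3.67e-14, with shUGDH-1 and -0.12 ± 0.025 (SE), edgeR adjusted p = 0.000299, with shUGDH-2. TOP2A was at -0.096 ± 0.021 (SE), edgeR adjusted p = 0.000391, with shUGDH-1 and -0.094 ± 0.021 (SE), edgeR adjusted p = 0.000853, with shUGDH-2, and without shUGDH-2 replicate 1 the shUGDH-2 value was -0.065 and no longer passed. In both topoisomerases every UGDH library lay below every shNT library.

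In the wider list of nucleotide genes, 6 of 24 were lower (25%, against 10.3% of all genes tested) and 1 higher (4.17%, against 10.5%) with shUGDH-1. With shUGDH-2, 4 were lower (16.7%, against 6.81%) and 0 higher (against 8.04%). PAICS and PPAT of purine synthesis had log2 fold changes of -0.20 ± 0.022 (SE), edgeR adjusted p = 8.1e-11, and -0.41 ± 0.060 (SE), edgeR adjusted p = 2e-07, with shUGDH-1. PAICS was at 386 to 390 CPM with shUGDH-1 and 422 to 428 CPM with shUGDH-2, against 442 to 448 CPM with shNT, a graded order without overlap. With shUGDH-2 the values were -0.068 and -0.20 (edgeR adjusted p = 0.0248 and 0.0137), and both calls were lost without single libraries: PAICS at -0.060 to -0.070 without shUGDH-2 replicate 1, 2 or 3 or shNT replicate 1 or 3, PPAT at -0.149 to -0.187 without shUGDH-2 replicate 1 or 2 or shNT replicate 2. DCTD, the dCMP deaminase that feeds TYMS, and DCK, the deoxycytidine kinase, were lower with shUGDH-1 (-0.26 ± 0.036 (SE), edgeR adjusted p = 9.07e-08; -0.39 ± 0.066 (SE), edgeR adjusted p = 4.87e-06). DCTD was also lower with shUGDH-2 (-0.12 ± 0.035 (SE), edgeR adjusted p = 0.0166). That call was lost without shUGDH-2 replicate 2 or 3 or shNT replicate 3, and with DESeq2. DCK did not pass with shUGDH-2 (-0.17 ± 0.063 (SE), edgeR adjusted p = 0.057).

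Among other G1/S regulators, 6 of 26 tested genes were lower (23.1%, against 10.3% of all genes tested) and 1 higher (3.85%, against 10.5%) with shUGDH-1. The 6 lower genes included E2F3 and E2F6, which were not called with shUGDH-2. With shUGDH-2, 2 were lower and 2 higher (7.69% each way), close to the shares over all genes tested of 6.81% and 8.04%. CDKN1A, the CDK inhibitor p21, had 175, 177 and 180.4 CPM with shUGDH-1 and 169, 165 and 167 CPM with shUGDH-2, against 149, 154 and 143 CPM with shNT. All 6 UGDH libraries were above shNT, at 0.25 ± 0.033 (SE), edgeR adjusted p = 1.18e-08, with shUGDH-1 and 0.17 ± 0.033 (SE), edgeR adjusted p = 0.000138, with shUGDH-2. CCNA2, the cyclin of S phase and G2, had 171.5, 163.5 and 158 CPM with shUGDH-1 and 173, 166 and 182 CPM with shUGDH-2, against 203, 197 and 199.8 CPM with shNT, below shNT in all 6 UGDH libraries (-0.28 and -0.20; edgeR adjusted p = 8.01e-10 and 3.44e-06). MYC went in opposite directions, with 535, 537 and 528 CPM with shUGDH-1 and 616, 596 and 624 CPM with shUGDH-2, against 553, 568 and 556 CPM with shNT. It was -0.068 ± 0.021 (SE), edgeR adjusted p = 0.0163, with shUGDH-1, a call lost without shUGDH-1 replicate 1 (-0.067) or 3 (-0.060) or shNT replicate 2 (-0.054), and 0.13 ± 0.021 (SE), edgeR adjusted p = 3.76e-06, with shUGDH-2. RBL1, the pocket protein p107, was lower with shUGDH-1 (-0.29 ± 0.040 (SE), edgeR adjusted p = 8.01e-08), and NASP, a histone chaperone, was lower with shUGDH-1 (-0.19 ± 0.033 (SE), edgeR adjusted p = 1.15e-05) and with shUGDH-2 (-0.099 ± 0.033 (SE), edgeR adjusted p = 0.0297), where the call was lost without any single shUGDH-2 library (-0.095 to -0.1) and without shNT replicate 3 (-0.067).

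Genes of the next cell cycle phase moved on the same scale. Of 28 mitosis genes, 2 were higher (7.14%, against 10.5% of all genes tested) and 3 lower (10.7%, against 10.3%) with shUGDH-1, so the count of lower genes was near the share over all genes. With shUGDH-2, 1 was higher (3.57%, against 8.04%) and 5 were lower (17.9%, against 6.81%). The median log2 fold changes were -0.005 with shUGDH-1 and -0.048 with shUGDH-2. MKI67, the proliferation marker Ki-67, had 1410, 1446 and 1434 CPM with shUGDH-1 and 1221, 1244 and 1250 CPM with shUGDH-2, against 1235, 1287 and 1316 CPM with shNT. It was above shNT in every shUGDH-1 library (0.16 ± 0.018 (SE), edgeR adjusted p = 2.95e-10), did not pass with shUGDH-2 (-0.046 ± 0.018 (SE), edgeR adjusted p = 0.0809), and differed between hairpins (-0.21 ± 0.018 (SE), edgeR adjusted p = 9.64e-14). Histone genes of the replication-dependent clusters, whose main mRNAs lack a poly(A) tail, were measured at low levels in these libraries, which were made with an mRNA kit. The 10 listed had a summed level of 125.7, 123.9 and 116.2 CPM with shUGDH-1 and 92.85, 90.43 and 87.45 CPM with shUGDH-2, against 107.2, 104 and 96.03 CPM with shNT. HIST1H2BK was higher with shUGDH-1 (0.29 ± 0.053 (SE), edgeR adjusted p = 2.04e-05) and lower with shUGDH-2 (-0.20 ± 0.056 (SE), edgeR adjusted p = 0.0078). The shUGDH-2 call of HIST1H2BK was lost without shNT replicate 1 (-0.146).

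Some markers of cell character moved with the hairpins beside these small replication changes, and their part in the results was not tested. The 10 basal and mesenchymal genes, all tested, had a summed level of 8699 to 8781 CPM with shUGDH-1 and 8240 to 8375 CPM with shUGDH-2, against 8224 to 8347 CPM with shNT, so it lay wholly above shNT with shUGDH-1 and overlapped it with shUGDH-2. With shUGDH-1, VIM, AXL, CAV2, MSN and FN1 were higher and ZEB1 was lower, and with shUGDH-2, AXL, MSN and FN1 were higher and CAV1 was lower. FN1, which encodes fibronectin, had the largest called log2 fold changes of this list, at 0.45 ± 0.033 (SE), edgeR adjusted p = 2.98e-17, with shUGDH-1 and 0.24 ± 0.034 (SE), edgeR adjusted p = 1.72e-07, with shUGDH-2. Of 9 luminal breast genes, 5 were tested. The summed level of the 9 was 1565 to 1599 CPM with shUGDH-1 and 1343 to 1382 CPM with shUGDH-2, against 1206 to 1223 CPM with shNT. With each hairpin 4 of the 5 were higher (80%, against 10.5% of all genes tested with shUGDH-1 and 8.04% with shUGDH-2). They were KRT8, KRT18, KRT19 and EPCAM with shUGDH-1, and GATA3, KRT8, KRT18 and KRT19 with shUGDH-2. The 8 leukocyte genes, of which 3 were tested, had a summed level of 113.8 to 121.5 CPM with shUGDH-1 and 142.8 to 151.1 CPM with shUGDH-2, against 139.6 to 145.7 CPM with shNT, carried by CD68 and HLA-DRA. CD68 was lower with both hairpins, and HLA-DRA was lower with shUGDH-1 (log2 fold change -0.66 ± 0.063 (SE), edgeR adjusted p = 5.41e-13) and higher with shUGDH-2 (0.32 ± 0.054 (SE), edgeR adjusted p = 1.29e-05). The 8 fibroblast genes, 3 of them tested, summed to 41.3 to 44.2 CPM with shUGDH-1 and 38.4 to 40.4 CPM with shUGDH-2, against 34.1 to 37.9 CPM with shNT, carried by PDGFRB, COL1A1 and COL1A2. COL1A2, a collagen chain, was higher with shUGDH-1 (log2 fold change 0.91 ± 0.13 (SE), edgeR adjusted p = 2.38e-07) and lower with shUGDH-2 (-0.70 ± 0.17 (SE), edgeR adjusted p = 0.00191). COL1A1 was higher with shUGDH-2 (log2 fold change 0.42 ± 0.11 (SE), edgeR adjusted p = 0.00352) and did not pass with shUGDH-1 (0.11), and PDGFRB passed with neither hairpin.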

How the data were processed

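RNA of 9 libraries was measured by mRNA sequencing. Per the file headers, the deposited table holds raw read counts per gene symbol for each library, with whole numbers and differing totals. The submitters' processing notes name hg19, STAR, DESeq and DESeq2. Annotation, counting tool and strand setting: not given in the sources used here. Per the file headers, the authors' deposited tables hold for each UGDH hairpin against shNT log2 fold changes, standard errors and p-values before and after adjustment, and a mean signal (baseMean) that was not used here.

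Of 23710 symbols, 28 were dates or repeated names (0.232% of counts). They stayed in the fit without a name. edgeR 4.0.16 (R 4.3.3) filtered genes with filterByExpr, which left 12546 genes and 99.93% of counts, scaled libraries by TMM (factors 0.997 to 1.003), and fitted all 9 libraries with a mean per group by robust quasi-likelihood, which left 6 residual degrees of freedom at a common coefficient of biological variation of 0.0202. A gene was called at a Benjamini-Hochberg adjusted p under 0.05 over all genes tested. The scripts were tested on simulated data. The members, lists and tests were chosen with earlier results of these data known. Genes given in full were UGDH, every member called in any comparison, CCNE1, CCNE2, E2F1, MCM2, PCNA, CDC6, CDT1, RRM2 and TYMS, and up to 4 genes of each other list at 5 CPM or more by smallest p. KRT8, KRT18, KRT19, EPCAM, GATA3, CD68, HLA-DRA, E2F3 and E2F6 were named after their values were seen. Alternatives were DESeq2 1.42.0, limma-voom 3.58.1, other scalings and filters, only the groups compared, the replicate number as a block, and leaving out each library.

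Transcript lengths, exon overlaps and hairpin sites came from GENCODE 29 (GRCh38), promoters from RefSeq GRCh38.p14, and no coordinate was converted. At least 10% of exon bases were shared with another gene in 9 members. Between replicates, variance was 1.2 to 1.91 times that of counting, highest in the pairs with shNT replicate 1. The same number in 2 groups gave correlations of deviations between -0.042 and 0.089, so the numbers were not taken as pairs.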

Additional observations from a re-analysis of the deposited data

Results flagged for a closer look

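Results are listed here because shUGDH-2 and shUGDH-1, compared directly, differed past an adjusted p of 0.05 in edgeR's quasi-likelihood test (Benjamini-Hochberg adjustment over all genes tested), with 3 libraries per hairpin. Values are log2 fold changes of shUGDH-2 over shUGDH-1, and no explanation was tested.

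Among the replication genes the differences were 0.305 for GINS3, 0.135 for CHAF1A, -0.077 for MCM7, -0.28 for GINS1, -0.188 for PCNA and -0.141 for TK1. In licensing and fork genes outside the 51, MCMBP, a binding partner of the MCM ring, was at -0.175 and MCM8 at -0.161, TOP1 at 0.17 and the clamp loader factor CHTF8 at -0.137. Enzymes of nucleotide supply were higher with shUGDH-2, with PAICS at 0.135, DCTD at 0.141, PPAT at 0.218 and DCK at 0.221. MYC was at 0.198, RBL1 at 0.19, the checkpoint clamp loader RAD17 at 0.198 and the strand break sensor PARP1 at -0.089. The mitosis genes were at -0.207 for MKI67, 0.073 for TPX2 and -0.131 for BUB1. The histone genes were at -0.497 for HIST1H2BK, -0.295 for HIST1H1C and -0.449 for HIST1H2BD. DESeq2 did not call MCM7, MCM8, CHTF8, PPAT, DCK, RAD17, TPX2 or HIST1H2BD.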

How the results depend on the processing

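Of the 24 calls of replication genes in the 3 comparisons, 14 were kept under every alternative run. The 10 others (MCM3, FEN1, SLBP and CCNE1 with shUGDH-1; GINS1, GINS4, MCM4 and CCNE1 with shUGDH-2; MCM7 and CHAF1A between hairpins) kept their direction and lost the threshold under at least 1. The cause was not tested.

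DESeq2 called fewer genes: 876 higher and 753 lower with shUGDH-1 (edgeR 1318 and 1287), 611 higher and 400 lower with shUGDH-2 (edgeR 1009 and 855), and 407 higher and 383 lower with shUGDH-2 over shUGDH-1 (edgeR 672 and 691). Its lower replication genes were 4 with shUGDH-1 and 5 with shUGDH-2.

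Leaving out 1 library at a time gave 2 to 4 higher and 5 to 7 lower replication genes with shUGDH-1, 0 higher and 5 to 7 lower with shUGDH-2, and 1 to 2 higher and 3 to 4 lower between hairpins. The genes called were 1042 to 1252 higher and 943 to 1178 lower with shUGDH-1, 756 to 953 higher and 496 to 767 lower with shUGDH-2, and 488 to 559 higher and 475 to 562 lower between hairpins. The medians of the 51 genes ran between -0.028 and 0.008 for shUGDH-1, -0.048 and -0.025 for shUGDH-2, and -0.041 and -0.023 between hairpins.

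Some values that had not passed changed sign. Leaving out 1 library at a time, E2F1 ran from -0.036 to 0.008 in shUGDH-1 against shNT and from -0.034 to 0.011 in shUGDH-2 against shNT, each positive without shNT replicate 2. TYMS in shUGDH-2 against shNT ran from -0.003 to 0.038, negative without shNT replicate 2 or without shUGDH-2 replicate 3 (-0.001). Between hairpins CCNE1 ran from -0.077 to 0.083, positive without shUGDH-1 replicate 1 or without shUGDH-2 replicate 3 (0.01), and E2F1 from -0.015 to 0.021, negative without shUGDH-2 replicate 2 or without shUGDH-1 replicate 3 (-0.013). MCM2 between hairpins passed (-0.085) in a fit of those groups only.

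With the replicate number as a block, the replication genes higher and lower were 3 and 7 with shUGDH-1 (median -0.021), 0 and 8 with shUGDH-2 (median -0.047), and 2 and 4 between hairpins (median -0.039). The block gave 1298 higher and 1284 lower genes for shUGDH-1, 992 and 865 for shUGDH-2, and 656 and 668 between hairpins.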
